A study of Mus musculus with 4 samples.

Results

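The genes described here encode transcription factors with a POU domain, and their levels were compared between the frontonasal prominences (FNPs) of WT and MD43 mouse embryos. The list holds 10 genes of the Pou2f, Pou3f, Pou4f and Pou6f classes, out of 33708 rows of autosomal genes in the table. They were chosen by family name and with earlier results of these same genotype values known, so their differences between genotypes are given as a description and carry no test. The FNP is the facial tissue that forms the nose and snout. It was taken from 4 FVB/NJ embryos at E10.5, all with 29 somites. WT embryos (Smchd1+/+, n = 2, labelled 1 female and 1 male) carried no mutant allele. MD43 embryos (n = 2, both labelled male) were homozygous for MommeD43, a chemically induced missense allele of Smchd1, the gene of a silencing factor that acts on chromatin. The allele was in the germline and so in every tissue, and the pieces were dissected prominences that hold several cell types. Per the labels, 1 WT and 1 MD43 embryo shared a mother. That WT embryo is the one labelled male, and another record of the study gives it as female. If that record is right, both WT embryos were female and both MD43 embryos male, and sex fully followed genotype. Sex and litter were thus unevenly spread over the genotypes, and with merged values their part cannot be told apart from that of the genotype.

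POU factors bind DNA through a POU-specific domain and a POU homeodomain, which are joined by a flexible linker and read an octamer-like sequence together. The Pou3f factors act in neural progenitors and in hypothalamic and cortical neurons, often beside SoxB proteins. The Pou4f factors act in young sensory neurons, in retinal ganglion cells and in hair cells of the inner ear. Pou2f1 is made by nearly all cells, and Pou2f2, Pou2f3 and Pou6f1 are made in narrower sets of lymphoid, neural or epithelial cells.

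Values are the authors' log2 RPKM (reads scaled to transcript length and library depth), in 1 merged value per genotype in the table analysed here, which gives no spread between embryos and allows no test of a difference. Reads quoted for a genotype are the geometric mean of its 2 libraries, recovered from the merged value, at a depth of 22.3 M reads for MD43 and 16.1 M reads for WT. The error beside a difference is a lower bound from read counting, written as a standard error (SE), and it leaves out the variation between embryos. Genes that reached 10 reads in WT or MD43 are called detected (15377), and those with 100 reads or more in WT and in MD43 are called well covered (10757). The well covered set leaves out genes that fell below 100 reads in either genotype, so large differences are rarer in it by construction. Smchd1 itself was at 3.31 log2 RPKM in WT and 3.30 in MD43, which does not check a missense allele. Markers of facial mesenchyme were present in both genotypes. All 8 listed markers had at least 10 reads, and their summed level was 148 RPKM in WT and 149 RPKM in MD43.

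The Pou3f genes are close relatives, each with a single exon, and a stretch of their coding sequence is shown because it bears on whether reads of 1 gene could be counted for another. The stretch is 75 bases long, the length of a sequenced read, and lies around the longest run that the Pou3f2 transcript shares with that of Pou3f1 (38 bases). It covers chr4:22487136-22487210 (minus strand) in Pou3f2, chr4:124658571-124658645 (plus strand) in Pou3f1 and chr1:42698208-42698282 (plus strand) in Pou3f3, in GRCm38 and the GENCODE transcripts, and is written 5′ to 3′ along each transcript. Capitals mark the bases that differ from Pou3f2.
Pou3f2: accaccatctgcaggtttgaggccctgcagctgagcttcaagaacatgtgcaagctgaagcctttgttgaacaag
Pou3f1: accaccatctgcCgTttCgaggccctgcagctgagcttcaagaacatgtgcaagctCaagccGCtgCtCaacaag
Pou3f3: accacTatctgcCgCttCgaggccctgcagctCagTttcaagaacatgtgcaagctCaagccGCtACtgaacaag

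Within this stretch Pou3f1 differed from Pou3f2 at 8 bases and Pou3f3 at 11. Across all 45 pairs of the 10 genes, no stretch of 75 bases was shared on either strand. The longest shared stretch was 71 bases, between Pou4f1 and Pou4f2. A full-length read without errors could therefore be placed in 1 of these genes alone.

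Of the 10 genes, 7 had reads and all 7 reached 10 reads in a genotype. The other 3, Pou2f3, Pou4f2 and Pou4f3, had no read in any of the 4 libraries. Pou3f2 was the only one of the 7 that lay at least 2-fold lower in MD43, and none lay at least 2-fold higher. Among all detected genes, 2.47% lay lower by 2-fold or more and 1.64% lay higher by as much. The genotype values had been seen when the list was made, so nothing is read from these counts. In the direction of the difference, 6 of the 7 were lower in MD43 and 1, Pou3f3, was higher. The median difference of the 7 was -0.36 on the log2 scale, beside 0.0057 for all detected genes, of which 48.8% were lower in MD43. Nearest to the 2-fold limit, Pou3f2 lay beyond it at -1.50 and Pou6f1 short of it at -0.58.

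In WT the order of the levels was Pou3f3 (3.55 log2 RPKM), Pou3f2 (2.65), Pou2f1 (2.54), Pou6f1 (0.66), Pou3f1 (0.37), Pou2f2 (-0.21) and Pou4f1 (-1.93). The neighbours Pou3f2 and Pou2f1 were 0.11 ± 0.05 apart in WT, and Pou6f1 and Pou3f1 were 0.28 ± 0.14 apart, or 2.24 and 2.07 times the counting SE, with the variation between embryos unknown. In MD43 the order was Pou3f3 (3.71 log2 RPKM), Pou2f1 (2.44), Pou3f2 (1.15), Pou6f1 (0.08), Pou3f1 (0.02), Pou2f2 (-0.76) and Pou4f1 (-2.05). Pou3f2 and Pou2f1 had changed places, with Pou2f1 now 1.28 ± 0.07 above Pou3f2. Pou6f1 and Pou3f1 differed by less than their counting error (0.06 ± 0.14) in MD43. Whether embryos of 1 genotype differ in this order cannot be told from the merged values.

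**Figure D1:**
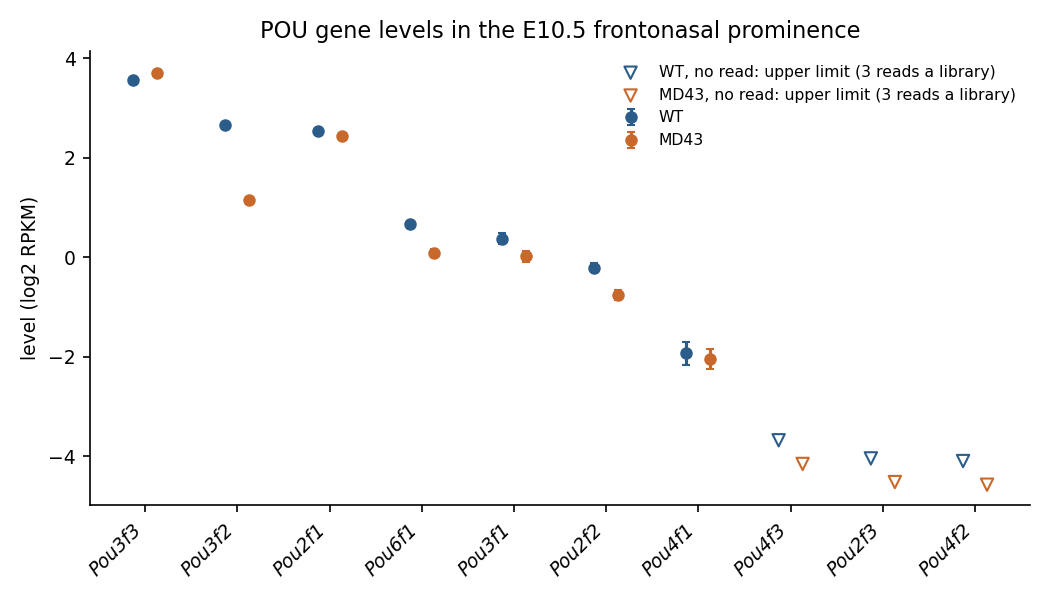
Levels (log2 RPKM) of the 10 POU genes in WT (blue) and MD43 (orange), ordered by the WT level, with points at the authors' merged value and bars of ± the smallest counting SE. Pou3f2 drops from the second to the third place in MD43, and the open triangles of Pou4f3, Pou2f3 and Pou4f2 are upper limits of genes with no read.

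Pou3f2 (Brn2, ENSMUSG00000095139, GRCm38 chromosome 4, 22482780 to 22488366, minus strand, protein coding) drives neural progenitors towards neurons and is needed for neuroendocrine neurons of the hypothalamus. Its level was 2.65 log2 RPKM in WT and 1.15 log2 RPKM in MD43, from 563 and 277 reads. The difference was -1.50 ± 0.07, or 2.83-fold lower in MD43. In linear terms 6.28 RPKM in WT stood beside 2.22 RPKM in MD43. Of the detected genes 0.832% had a lower difference than Pou3f2, and of the well covered genes 0.0558% did.

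The reads of the single Pou3f2 libraries can be narrowed down, because the product of both is a whole number. In WT, the only whole reads within 2-fold of each other that give this product are 461 and 688. The WT product lies in the range in which 93.6% of products came out whole (within 0.1), so this pair is less certain than those of lower counts. In MD43 they are 210 and 366, 244 and 315, or 252 and 305. In each of these cases both MD43 libraries held fewer reads than both WT libraries, although MD43 had been sequenced 1.39 times deeper. If the libraries of a genotype could differ by up to 4-fold, 344 and 922 in WT and 140 and 549 in MD43 would also be possible, and the genotypes would then overlap. Of the genes with 1 possible pair within 4-fold, the pair lay within 2-fold for 94.2% in MD43 and 89.1% in WT. Which embryo held which count cannot be told.

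Pou3f3 (Brn1, ENSMUSG00000045515, chromosome 1, 42695768 to 42703176, plus strand) shares much of its role in the cortex with Pou3f2. Among the listed genes with reads it was the most abundant and the only one higher in MD43. It had 3.55 log2 RPKM in WT and 3.71 in MD43, from 1397 and 2170 reads. The difference of 0.16 ± 0.03 was 1.12-fold, and 23.9% of the detected genes lay higher. Pou3f2 and Pou3f3 thus stood 0.90 apart in level in WT and 2.56 apart in MD43, on the log2 scale. Their differences between genotypes were 1.66 ± 0.08 apart, far beyond counting error, with the variation between embryos unknown.

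Pou3f1 (ENSMUSG00000090125, chromosome 4, 124656807 to 124660655, plus strand), known for the onset of myelination in Schwann cells and for early neural fate, was the least abundant listed Pou3f gene. Its level was 0.37 log2 RPKM in WT and 0.02 in MD43, from 80.0 and 86.9 reads, with a difference of -0.36 ± 0.16. The WT reads of 66 and 97 were the only pair within 4-fold. In MD43 8 pairs were possible, from 84 and 90 to 45 and 168, so whether the libraries of the 2 genotypes are separated cannot be told. Among detected genes, 12.5% had a lower difference.

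The 3 listed Pou3f genes together summed to 19.3 RPKM in WT and 16.4 RPKM in MD43, a log2 difference of -0.24. Pou3f4, of the same class, is X-linked and absent from the autosomal rows, so shares of the whole class are not known. Pou3f2 made up 32.5% of the sum of the listed genes in WT and 13.6% in MD43. The share of Pou3f3 was 60.8% in WT and 80.2% in MD43, and that of Pou3f1 was 6.70% and 6.19%. Among the listed Pou3f genes, then, Pou3f2 held less of a slightly lower sum in MD43, and Pou3f3 held more of it.

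**Figure D2:**
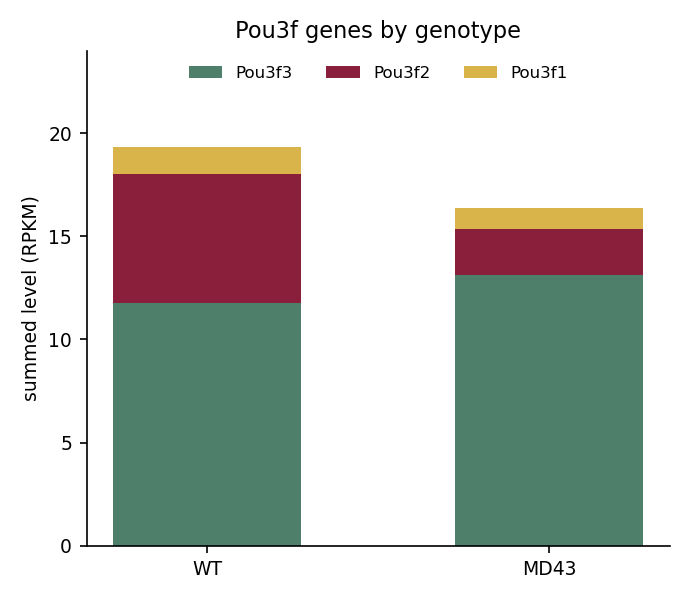
Stacked levels (RPKM) of Pou3f3, Pou3f2 and Pou3f1 in WT and MD43, from the authors' merged value per genotype, with no error drawn. The sum is 19.3 RPKM in WT and 16.4 RPKM in MD43, and the Pou3f2 part shrinks from 6.28 to 2.22 RPKM.

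Pou2f1 (ENSMUSG00000026565, chromosome 1, 165865154 to 166002678, minus strand), a widely expressed octamer-binding factor of housekeeping and histone genes, was close to equal in the 2 genotypes. It had 2.54 log2 RPKM in WT and 2.44 in MD43, from 1548 and 2004 reads. The difference was -0.10 ± 0.03, and 31.9% of the detected genes lay lower. Its reads are too many for the counts of single libraries to be narrowed down. The end of Pou2f1 overlaps Cd247 on the opposite strand, which differed by -0.07 ± 0.07, and the use of strand in the counting is not given in the sources used here.

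Pou2f2 (ENSMUSG00000008496, chromosome 7, 25087344 to 25179726, minus strand), known from B cells and neurons, was at -0.21 log2 RPKM in WT and -0.76 in MD43. The reads were 114 and 109, nearly equal numbers at unequal depth, and the difference was -0.55 ± 0.14. The MD43 libraries held 109 reads each, since 109 and 109 is the only pair within 4-fold. The WT libraries held 109 and 120 reads, or 60 and 218. Scaled to depth Pou2f2 was 1.46-fold lower in MD43. Of the detected genes 7.09% lay lower still, and of the well covered genes, with the limit given above, 2.10% did. The lincRNA D930028M14Rik (chromosome 7, 25152457 to 25156627, plus strand) lies inside Pou2f2 on the opposite strand and held 47 reads in each WT library, and 27 and 37 in MD43. Its difference was -1.05 ± 0.23, so its reads and those of Pou2f2 are uncertain where they could be shared.

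Pou2f3 (chromosome 9, 43123939 to 43210369, minus strand), a factor of keratinocytes and of tuft cells, had no read in any library. This allows a level of up to -4.05 log2 RPKM in WT and -4.52 in MD43, at 3 reads a library, and covers counting error only. The difference listed for genes with no read (-0.4758) reflects depth alone. Markers of surface ectoderm, the epithelium of the face, were present in both genotypes.

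Pou6f1 (ENSMUSG00000009739, chromosome 15, 100575318 to 100599984, minus strand), found mainly in brain and spinal cord, had 0.66 log2 RPKM in WT and 0.08 in MD43. This came from 176 and 164 reads, and the difference was -0.58 ± 0.11, or 1.49-fold lower. The WT libraries held 173 and 179 reads. In MD43 the pair was 121 and 222 or 111 and 242. The unscaled reads of WT lie between these, but MD43 was sequenced 1.39 times deeper, so this does not compare levels. Of the detected genes 6.50% lay lower, and of the well covered genes, with the limit given above, 1.79% did. Pou6f1 and Pou2f2, of different classes, had differences 0.03 ± 0.18 apart, less than their counting error.

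Pou4f1 (Brn3a, ENSMUSG00000048349, chromosome 14, 104461676 to 104467999, minus strand), a marker of sensory neurons of the cranial ganglia, was the least abundant gene with reads. Its level was -1.93 log2 RPKM in WT and -2.05 in MD43. Within a 4-fold ratio the only possible reads were 11 and 35 in WT and 22 and 29 in MD43, and the genotypes overlapped. The difference of -0.11 ± 0.31 was smaller than its counting error, and at this depth a difference of that size was not detectable. Pou4f2, a factor of retinal ganglion cells (chromosome 8, 78433010 to 78436645), and Pou4f3, a factor of hair cells (chromosome 18, 42394539 to 42397249), had no read in any library. With 3 reads a library their levels could reach -4.10 and -3.68 log2 RPKM in WT, and -4.58 and -4.16 in MD43.

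**Figure D3:**
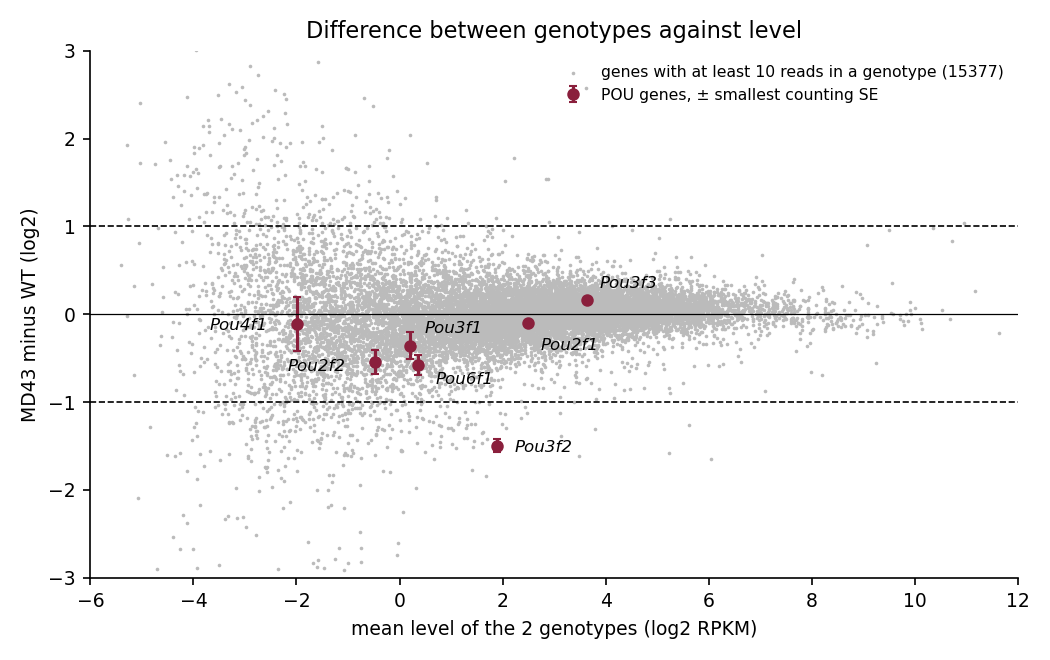
Difference between genotypes (MD43 minus WT, log2) against the mean of both levels (log2 RPKM), for the 15377 detected genes (grey) and the 7 POU genes with reads (red, ± the smallest counting SE). Dashed lines mark 2-fold, 25 genes lie outside the axis, and Pou3f2 is the only POU gene beyond the lower dashed line.

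By class, the differences ran from -1.50 to 0.16 in Pou3f and from -0.55 to -0.10 in Pou2f, and the single values were -0.58 in Pou6f and -0.11 in Pou4f. The medians of Pou3f (-0.36) and Pou2f (-0.32) were close, although Pou3f held both the lowest and the highest difference. With a pseudocount of 1 RPKM the differences of Pou2f2, Pou3f1 and Pou6f1 were -0.23, -0.19 and -0.33, because their levels are themselves near 1 RPKM, and that of Pou3f2 was -1.18.

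Transcripts beside the POU genes were then listed, since non-coding RNAs are often made next to genes of developmental regulators. Within 100 kb of the 10 genes lay 59 other rows, of which 35 were detected. Their median difference was -0.02. At least 2-fold lower in MD43 were 3 of these 35, and none was at least 2-fold higher, beside 2.47% and 1.64% of all detected genes. Among the 3 were Gm30731 beside Pou3f2 and D930028M14Rik inside Pou2f2.

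Gm30731 (chromosome 4, 22490548 to 22493126, plus strand) is a lincRNA read in the direction opposite to Pou3f2, and 2181 bases lie between the starts of both. Its level was 0.34 log2 RPKM in WT and -3.49 in MD43. The 2 MD43 libraries held 0 and 3 reads. The WT libraries held 14 and 20 reads, or 10 and 28. By the merged levels Gm30731 was 14.2-fold lower in MD43. The interval was instead taken from reads summed over both libraries and scaled to depth. So counted, 3 against 34 reads made Gm30731 15.8-fold lower in MD43, with an exact 95% interval of 4.96 to 80.2. For the wider WT pair (3 against 38 reads) it was 17.6-fold lower (5.59 to 89.2), and both intervals cover counting error only. On the other side, Fbxl4 (48688 bases from Pou3f2, opposite strand) differed by -0.08 ± 0.13. Pou3f2 and Gm30731 do not overlap, so they share no exon, and both were lower in MD43.

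At Pou3f3 the 2 detected neighbours did not follow the gene. Pantr1 (chromosome 1, 42590782 to 42694842, minus strand), a lincRNA on the opposite strand whose start lies 925 bases from that of Pou3f3, gave 412 reads for WT and 430 for MD43. Its difference was -0.42 ± 0.07. Pantr2 (chromosome 1, 42707061 to 42713454, minus strand), beyond the end of Pou3f3, differed by -0.35 ± 0.17 on 69.4 and 75.6 reads. Both were lower in MD43, against 0.16 ± 0.03 for Pou3f3. A further row that overlaps Pou3f3, Gm20646, listed -1.53 log2 RPKM in WT and -1.26 in MD43. Its difference of 0.27 had the direction of Pou3f3. It had no match in GENCODE M21, so its reads are not known.

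A further 8 detected neighbours of Pou2f2 (Gsk3a, 9130221H12Rik, Dedd2, Cic, Zfp526, Grik5, Zfp574 and Erf) lay between -0.0034 and 0.33. Around Pou3f1, Utp11, Sf3a3, Fhl3 and Inpp5b had a median difference of 0.11. Around Pou6f1, Dazap2, Letmd1, Csrnp2, Tfcp2, Smagp and Bin2 had a median of -0.10, and the lowest was Bin2 at -0.48 ± 0.30. Around Pou2f1, Creg1 (-0.19 ± 0.09), Gm16565 (-0.53 ± 0.40) and Dusp27 (-0.06 ± 0.29) were detected beside Cd247. Near the genes with few or no reads, Arhgef12, Tmem136 and Oaf (Pou2f3), Rnf219 (Pou4f1), Rbmxl1 and Slc10a7 (Pou4f2) and Rbm27 (Pou4f3) lay between -0.18 and 0.24. None of these neighbours was past 2-fold, so that Pou3f2 and Pou2f2 were the only genes of the list with such a neighbour.

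**Figure D4:**
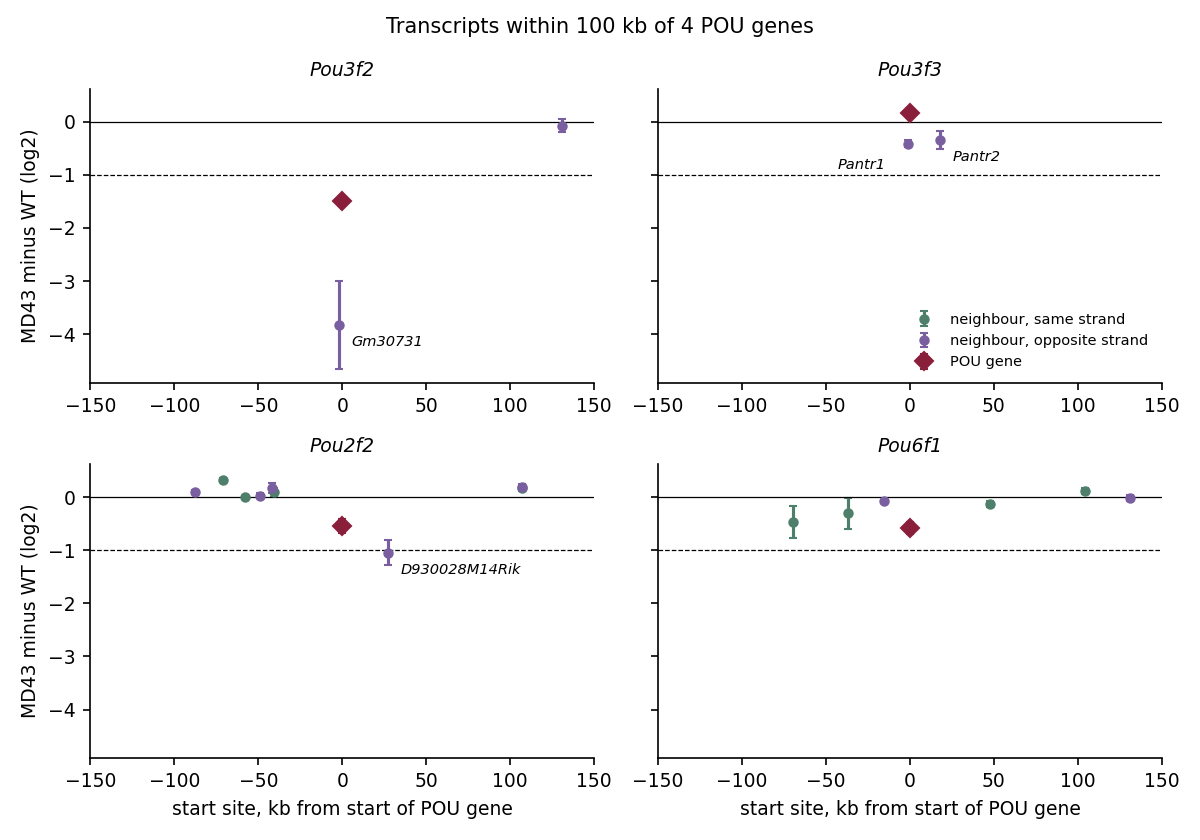
Difference between genotypes (MD43 minus WT, log2) of transcripts with at least 10 reads that lie within 100 kb of Pou3f2, Pou3f3, Pou2f2 and Pou6f1 and start within 150 kb of their start, by the distance of their start site from that of the POU gene in kb (positive in the direction of transcription), with ± the smallest counting SE. Gm30731 and Pou3f2 are both below the dashed 2-fold line, and Pantr1 and Pantr2 lie below Pou3f3.

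The 250 bases before the start of Pou3f2, of Gm30731 and, for comparison, of Pou3f3 are shown because the first of these face away from each other at 1 locus and were both lower. They are RefSeq sequences of GRCm38.p6, at chr4:22488367-22488616 (minus strand), chr4:22490298-22490547 (plus strand) and chr1:42695518-42695767 (plus strand), written 5′ to 3′ with each CpG in capitals.
Pou3f2: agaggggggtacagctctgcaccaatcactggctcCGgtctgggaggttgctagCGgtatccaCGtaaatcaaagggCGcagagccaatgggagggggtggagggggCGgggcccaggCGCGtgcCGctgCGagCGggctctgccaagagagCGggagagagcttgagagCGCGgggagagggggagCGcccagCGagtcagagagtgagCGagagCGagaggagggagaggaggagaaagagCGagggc
Gm30731: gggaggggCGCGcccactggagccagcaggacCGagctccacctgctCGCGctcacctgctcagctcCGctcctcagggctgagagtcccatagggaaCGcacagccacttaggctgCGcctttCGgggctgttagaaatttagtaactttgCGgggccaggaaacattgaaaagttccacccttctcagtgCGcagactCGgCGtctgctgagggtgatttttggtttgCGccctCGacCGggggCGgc
Pou3f3: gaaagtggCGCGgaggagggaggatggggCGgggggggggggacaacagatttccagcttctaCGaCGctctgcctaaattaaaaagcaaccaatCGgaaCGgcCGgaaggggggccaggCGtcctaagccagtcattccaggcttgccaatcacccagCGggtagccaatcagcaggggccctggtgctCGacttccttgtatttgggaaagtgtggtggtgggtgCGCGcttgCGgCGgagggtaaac

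These windows held 18 CpGs (Pou3f2), 17 (Gm30731) and 15 (Pou3f3), beside a median of 6 over the 32851 RefSeq windows. At least 18 CpGs were found in 21.7% of all windows and at least 15 in 27.3%. The CpG content of the Pou3f3 window was thus near that of Pou3f2. Whether CpG content goes with the difference between genotypes was not tested. The octamer ATGCAAAT, which POU factors bind, was searched on both strands of the whole windows of 300 bases. It occurred in none of the 9 windows found for 7 of the 10 genes, and in 1.74% of all windows.

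Partners and known targets of POU factors were described from lists. None of the 9 detected partners and cofactors was 2-fold different, and their median difference was -0.10. Sox11, a SoxC factor of young neurons, had the most reads (8101 in WT and 9636 in MD43) and differed by -0.23 ± 0.02. Sox2 and Sox1, the SoxB partners of Pou3f factors in neural progenitors, differed by -0.13 ± 0.03 and -0.23 ± 0.04. Isl1, which acts beside Pou4f1 in sensory neurons, differed by 0.33 ± 0.10. Pou2af1, the B cell coactivator of Pou2f1 and Pou2f2, had no read.

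Of the 10 targets, 4 were detected and none of these was 2-fold different, with a median of -0.23. Nes, whose neural enhancer is bound by POU and Sox factors, had the most reads and was nearly equal in the 2 genotypes (0.03 ± 0.02). Fabp7, a marker of radial glia with a POU site in its promoter, was at 5.69 log2 RPKM in WT and 4.80 in MD43, from 1037 and 776 reads. Its difference of -0.89 ± 0.05 was the lowest of the 4. Eomes differed by -0.45 ± 0.08, and the Notch ligand Dll1 by -0.01 ± 0.04. The hypothalamic hormone genes Crh, Avp and Oxt had no read in either genotype, and Egr2 and Gfi1 had under 10 reads in each.

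Because a dissected piece can hold neighbouring tissues, markers of other cell types are given beside these values. Neural progenitor markers had a median difference of -0.18, with none of 8 past 2-fold, and summed to 369 RPKM in WT and 343 RPKM in MD43. They ran from -0.89 (Fabp7) to 0.49 (Lhx2). Sox1, Sox2, Nes and Fabp7 are also in the partner or target lists above, so these lists are not separate. Young neuron markers had a median of -0.10 over 7 genes, with none past 2-fold, and summed to 106 RPKM in WT and 103 RPKM in MD43. Of 7 sensory neuron markers, 4 reached 10 reads with a median of 0.23, the sum was 12.4 RPKM in WT and 14.1 RPKM in MD43, and Prrxl1 had no read. Of the 4, Neurod4 was lower in MD43 (-0.98 ± 0.29), and Isl1, Neurod1 and Neurog1 were higher.

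Diencephalon markers were lower in MD43. All 10 were detected, and 7 were at least 2-fold lower, beside 2.47% of all detected genes. Their median difference was -1.52, and their summed level was 37.1 RPKM in WT and 21.1 RPKM in MD43. The lowest were Foxb1 with 58.8 reads in WT and 1.34 in MD43, Barhl2 with 183 and 4.24, and Nkx2-2, which went from 0.41 log2 RPKM in WT to -2.42 in MD43. These 3 had been seen to be low in these data when the list was written. The count and the median partly follow from that choice, so the list is not independent evidence. Also past 2-fold were Rax (-2.17 ± 0.24), Otp (-1.57 ± 0.31), Sim1 (-1.48 ± 0.33) and Dbx1 (-1.40 ± 0.15). Short of it were Nkx2-1 (-0.45 ± 0.06), Vax1 (-0.30 ± 0.12) and Six6 (-0.02 ± 0.10). Reads were few for Otp (33.9 in WT and 15.9 in MD43) and Sim1 (29.4 and 14.7). These markers were named after their values were seen. The part of such tissue in the Pou3f2 difference was not tested. In a bulk piece, fewer cells of a type and less RNA per cell cannot be told apart.

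Surface ectoderm markers summed to 116 RPKM in WT and 180 RPKM in MD43, with 7 of 8 higher and Krt5 past 2-fold (1.17 ± 0.28). Red blood cell markers summed to 3057 RPKM in WT and 5814 RPKM in MD43, with 5 of 5 higher, among them Slc4a1 (1.52 ± 0.08) and Hbb-bh1 (1.04 ± 0.01). No marker of either list in the table was at 0. Whether these shares of the libraries bear on the small negative differences of Pou2f1, Pou2f2, Pou3f1 and Pou6f1 was not tested.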

How the data were processed

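FNPs of 4 embryos were sequenced by the study as stranded poly(A) libraries, from 100 ng of RNA per the labels. Per the paper's methods and the submitters' processing notes, the authors trimmed reads with Trim Galore 0.4.4, mapped them with HISAT2 2.0.5 to GRCm38.p6 and quantified them in SeqMonk. The deposited values are log2 RPKM, with 1 merged column per genotype. The table also holds the authors' fold change, mean and FDR, which were not used. Since counts and single libraries are absent from it, the count test planned for that case was not run, and differences are MD43 minus WT with no test.

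Rows were matched to GENCODE M21 for exon length (33101 of 33708). The most frequent difference (-0.4758, 12862 rows) marks genes without reads. Of those with a match, 97.9% shared 1 constant once length was removed, with a library without reads counting as 0.9 reads. From this constant, the squared linear value of any gene gives the product of the reads of its 2 libraries. Of products from 10000 to 100000, 99.7% (MD43) and 99.8% (WT) were within 0.1 of a whole number, and from 200000 to 400000 93.6% in both. Whole pairs with this product were listed. Their median ratio was 1.52 in MD43 and 1.45 in WT, for genes with 1 pair within 4-fold and a product from 20000 to 200000. The recovery was tested on simulated data.

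The members and lists were chosen with earlier results of these data known, and the pairs of reads after the values were seen. The rule for named genes took all members, every row within 100 kb with at least 10 reads, partner, target and other POU genes past 2-fold or among the 2 with most reads, at most 3 markers a list past 2-fold, and Smchd1. Other list genes were named after their values were seen. Pandas 2.3.3 and SciPy 1.17.1 were used. Some genes that the rule takes are not reported here.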

Additional observations from a re-analysis of the deposited data

How the results depend on the processing

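No paired analysis was possible because each genotype is 1 merged column, and for the same reason no library could be left out. Pseudocounts of 0.1 and 1 RPKM and centring on the median of well covered genes (0.01) kept the direction of all 21 differences of the 7 genes, as a pseudocount must. Of these, 18 stayed within the 95% counting interval, which is wider than the ± SE printed elsewhere. The other 3 moved outside it, all with 1 RPKM: Pou2f2 (-0.23), Pou3f2 (-1.18) and Pou6f1 (-0.33). Pou3f1 (-0.19 with 1 RPKM) stayed inside it but moved by slightly more than its counting SE. With a 3-fold limit, 0 genes were lower, and with 1.5-fold, without the read filter, with 50 reads or after centring 1 was. None was higher in any of these. The median of the known targets was -0.48 without the read filter, the value of genes with no read. Depth limits Pou4f1 and the 3 genes with no read.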

Other observations

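Of the remaining POU genes in the table, which are not among the 10, none reached 10 reads in a genotype. Pou5f1, the pluripotency factor, had 1 read in 1 MD43 library and none in the other 3. Pou1f1, the pituitary factor, and Pou5f2 had no read in any library. Pou3f4 lies on the X chromosome and was not analysed here. Among the partner genes, Isl2 had 27.3 reads in WT and 65.3 in MD43 (0.78 ± 0.23), the largest positive difference in that list, and Myt1l had 15.5 and 13.5 reads (-0.68 ± 0.38), the largest negative one among partners with at least 10 reads.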
